A study of Arabidopsis thaliana with 6 samples.

Results

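A set of 9 named long non-coding RNAs (lncRNAs), out of 39351 features in the table, was followed through an RNA immunoprecipitation sequencing (RIP-seq) experiment on NSRa, a nuclear speckle RNA binding protein of Arabidopsis thaliana. ASCO (AT1G67105), APOLO (AT2G34655), IPS1 (AT3G09922) and AT4 (AT5G03545) are included because they are well known by name. GUT15 (AT2G18440), AT4G36648, AT5G38005 and AT5G09475 were among the lncRNAs that the study took from its own list of RIP targets for RIP-qPCR, and AT1G05163 was included for its rank in the control pull-down. These last 5 genes were thus selected on their values in the RIP, Mock and Input libraries, and those values are given as a description without a test. All libraries came from seedlings that carry NSRa with an HA epitope tag, driven by its own promoter, in the nsra mutant background. Treatment with the synthetic auxin naphthaleneacetic acid (NAA) lasted 24 h, and UV light was then used to crosslink proteins to RNA. The labels give the NAA dose as 1 µM in one protocol and as 100 nM in another, and the age as 10, 14 or 15 days. There were 2 libraries of RNA pulled down with an antibody to the HA tag (RIP), 2 of RNA pulled down with mouse IgG (Mock) and 2 of RNA saved from the lysate (Input). Neither wild-type plants nor plants without NAA are among these libraries, and whole seedlings do not show in which cells a transcript was made.

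LncRNAs are transcripts that act as RNA, and the 9 genes include several with a known mode of action. ASCO binds NSR proteins and competes with their alternatively spliced mRNA targets, so that it changes which isoforms are made. APOLO is induced by auxin and shapes a chromatin loop at the neighbouring gene PID, which encodes a kinase that directs auxin transport. IPS1 and AT4 are induced by phosphate starvation. They carry a site for the microRNA miR399 that is interrupted by a bulge, and so they hold miR399 away from PHO2, the mRNA of an enzyme that limits phosphate uptake. GUT15 is known as a gene with an unstable transcript. No function is annotated for the other 4.

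The lncRNAs lie on all 5 nuclear chromosomes, with positions given here on TAIR10.1, the RefSeq reference whose gene identifiers and exon lengths matched the table. ASCO lies on chromosome 1 from 25057479 to 25058264, APOLO on chromosome 2 from 14596565 to 14597543, IPS1 on chromosome 3 from 3050989 to 3051530 and AT4 on chromosome 5 from 894582 to 895517, each on the plus strand and in 1 exon. GUT15 spans 7994941 to 7997239 on the minus strand of chromosome 2 with 3 merged exons, and AT4G36648 spans 17280528 to 17282730 on the minus strand of chromosome 4 with 2. AT5G38005 has 2 merged exons and lies on chromosome 5 from 15155067 to 15156088, plus strand. AT5G09475 is a single exon of 242 bases on the same chromosome and strand, from 26290991 to 26291232. AT1G05163 is a single exon on the minus strand of chromosome 1 from 5297847 to 5298571. RefSeq lists APOLO, IPS1 and AT4 as protein-coding genes and the other 6 as ncRNA or lncRNA.

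The depth of the libraries set what could be seen of each lncRNA. Totals recovered from the deposited FPKM values (fragments per kilobase of exon, scaled to the library total) ranged from 25274634 to 27494964 reads in Input, from 977230 to 1599136 in RIP and from 154149 to 197923 in Mock. The limit of detection is set here at 3 reads, which came to 0.109 and 0.119 CPM (reads per 1e+06 reads of the library) in Input, 1.88 and 3.07 in RIP, and 15.2 and 19.5 in Mock. In all, 79.9% of the 32674 annotated nuclear genes had 0 reads in both Mock libraries. Intervals on shares of reads below are exact 95% binomial (Clopper-Pearson) intervals, which cover counting error only, since reads copied by PCR are not independent molecules. The labels do not say whether the replicates came from separate cultures, so p-values measure the spread between these libraries, which may be technical.

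**Figure D1:**
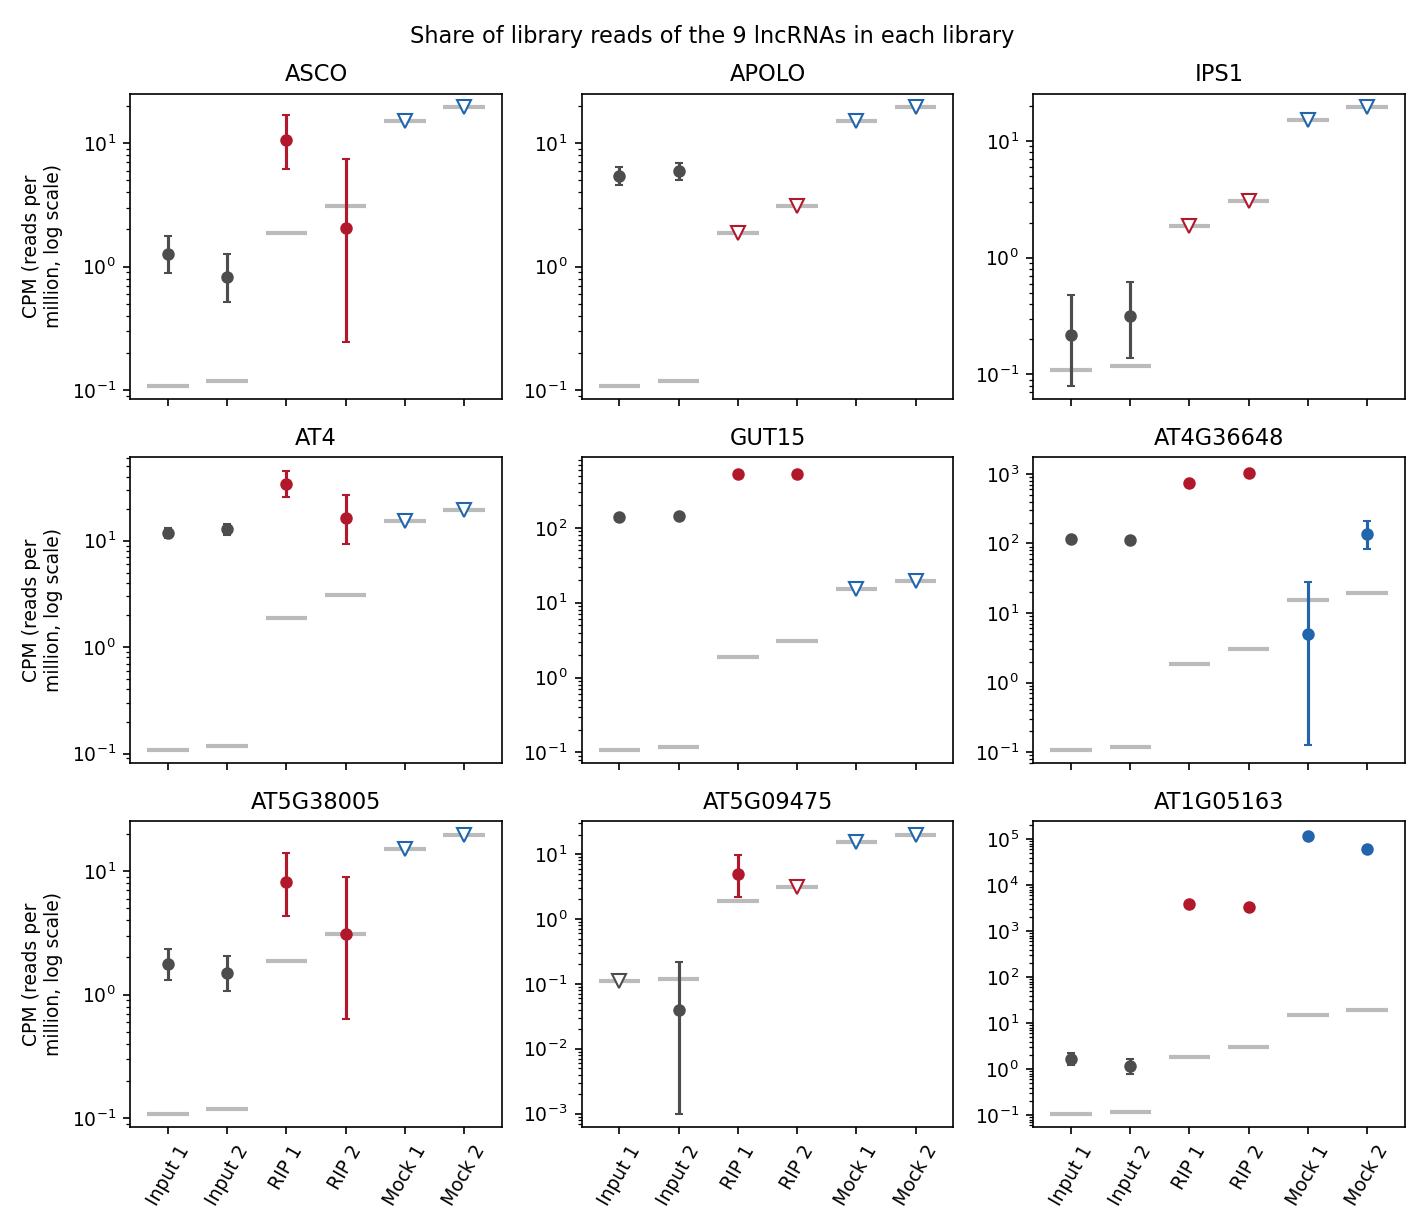
CPM (log axis) of each lncRNA in the 6 libraries, with points for the values, bars for 95% Clopper-Pearson intervals and grey lines for the limit of 3 reads. Open triangles stand at that limit for libraries with 0 reads, and 7 of the 9 lncRNAs have 0 reads in both Mock libraries.

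The order of the lncRNAs differed between Input and RIP. In Input, GUT15 stood highest at 84.8 ± 1.87 FPKM (SD, n = 2), followed by AT4G36648 at 54.3 ± 0.599, AT4 at 13.2 ± 0.670 and APOLO at 5.80 ± 0.318. AT5G38005 (3.01 ± 0.362), AT1G05163 (1.97 ± 0.474) and ASCO (1.34 ± 0.398) followed, and IPS1 (0.493 ± 0.128) and AT5G09475 (0.0817 ± 0.116) were lowest. The ranges of neighbours in this order overlapped for no pair, but the means of AT1G05163 and ASCO differed by little more than their SDs. In RIP, AT1G05163 stood highest at 4928 ± 463 FPKM, before AT4G36648 at 421 ± 91.4, GUT15 at 309 ± 1.42 and AT4 at 27.1 ± 13.6. AT5G09475, AT5G38005 and ASCO had means of 10.3, 10.3 and 8.06 FPKM with SDs of 14.6, 6.56 and 7.72, so that their order was within the spread, and APOLO and IPS1 were at 0.

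The first comparison asks which RNAs were more abundant after the anti-HA pull-down than in the lysate. With limma, log2(FPKM + 1) in the 6 libraries was modelled by group for the 19997 features that reached 1 FPKM in 2 or more of them, and 7 of the 9 lncRNAs were among these. IPS1 and AT5G09475 were below this minimum. Calls are made here only for the 3 of them that were not picked on these values, ASCO, APOLO and AT4. Of these, 0 were past the threshold for higher in RIP than in Input (adjusted p under 0.01 and a log2 difference above 2), which 1.48% of all features tested passed, and 1, APOLO, was past the one for lower, which 5.78% passed. Among the 420 annotated non-coding genes tested these shares were 7.38% and 8.1%. Without RIP replicate 2, ASCO was past the threshold for higher. Of all features past either threshold 20.4% were higher, against 47.8% with quantile normalization and 86.7% with voom on recovered reads. The median log2 difference was 1.64 over the 7 lncRNAs and -0.52 over all 19997 features, and 6 of the 7 were above 0. Since 4 of these 7 were picked with RIP or Mock values in view, the median describes the selection.

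ASCO, the lncRNA known to bind NSR proteins, was low in every library. It had 35 and 21 reads in the Input libraries, or 1.27 CPM (95% interval 0.887 to 1.77) and 0.831 (0.514 to 1.27). In RIP it had 17 and 2 reads, or 10.6 (6.19 to 17.0) and 2.05 (0.248 to 7.39) CPM. Both RIP values were above both Input values, but the interval of RIP replicate 2 spanned the Input level. The replicates with the same number differed 8.35-fold and 2.46-fold in FPKM. The log2 difference was 1.64 ± 0.727 (SE) with an interval of -0.38 to 3.66, and it did not pass the test (limma, Benjamini-Hochberg adjusted p = 0.219). It depended on which RIP library was used. Without RIP replicate 1 the difference was 0.63 (limma, adjusted p = 0.0802), and without RIP replicate 2 it was 2.65 (adjusted p = 0.00324), in fits that assume the remaining RIP library to vary like the other groups. In both Mock libraries ASCO had 0 reads, where its RIP share would have given 1.46 and 1.14 reads. By RT-qPCR, a different measure, the paper reports that targets known from earlier work, ASCO among them, were enriched in its RIP over input.

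Sequence related to ASCO lies elsewhere in the genome. A search with blastn at an e-value of 1e-05 found 13 such regions, with an identity of at most 79.1%. Several of these regions fall in annotated genes. AT1G67365, a lncRNA on the same strand with 67.7% identity over 409 aligned bases, had 60 and 67 reads in Input, 23 and 2 in RIP, and 0 in Mock. AT1G64795, which lies opposite to the end of ILA, had 2 and 2 reads in Input and 42 and 32 in RIP, with 0 in Mock. These last 2 genes were picked after their values were seen, and of the 2 only AT1G67365 shared with ASCO the low second RIP library. Other listed genes in these regions varied. ATM1 was lower in both RIP libraries (8.15 and 13.7 FPKM) than in Input (16.8 and 17.7), with 43.3 and 7.25 in Mock. By FPKM, AT1G33102 and ILA were higher in both RIP libraries than in both Input libraries. AT3G06955, AT3G00620, AT5G00480 and AT2G13547 had at most 10 reads in either Input library and 0 in RIP. AT3G45820, AT3G06095 and AT2G00590 had 0 reads in every library.

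APOLO was the one lncRNA detected in Input and not in RIP at a depth where several reads would have been seen. It had 150 and 149 reads in Input, or 5.46 (4.62 to 6.40) and 5.90 (4.99 to 6.92) CPM. At the Input share, 9.06 and 5.54 reads would have fallen in the RIP libraries, and 0 and 0 were counted. The exact upper bounds for RIP, 2.31 and 3.77 CPM, were below both Input values. Against a floor of 3 reads per library, APOLO was at least 2.29-fold lower in RIP than in Input. The fitted log2 difference was -2.76 ± 0.0658 (limma, adjusted p = 8.74e-05), although this small SE comes from RIP and Mock values that are all 0, and the fitted value depends on the pseudocount. Absence from RIP was not rare at this level. Of 1395 annotated genes with 80 to 120% of the Input reads of APOLO, 253 (18.1%) were at 0 in both RIP libraries, and the median gene had 6 and 3 reads. In Mock only 1.12 and 0.873 reads would have been seen at the Input share, so that the 0 reads there were not informative.

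APOLO has a close copy. AT1G05817, a lncRNA on chromosome 1, matches it with 96.1% identity over 882 bases and was at 0 in every library, and the pseudogene AT5G49465 matches it with 89.6% identity over 894. Reads that could not be placed between such copies may be missing from the counts. PID lies upstream of APOLO, 4424 bases away with no annotated gene in between. Unlike APOLO, PID was detected in both RIP libraries with 47 and 45 reads, against 313 and 291 in Input and 0 in both Mock libraries. Its RIP values of 14.0 and 21.9 FPKM were above the Input values of 5.43 and 5.49. The log2 difference of RIP to Input was 1.52 ± 0.263 (limma, adjusted p = 0.0247), which missed the threshold, and that of RIP to Mock was 4.21 ± 0.263 (adjusted p = 0.000684), which passed.

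Of 5 genes listed with APOLO, 5 were tested, 0 were higher and 1 was lower in RIP than in Input, beside 1.48% and 5.78% of all features. The log2 difference was above 0 for 2 of the 5. The lower gene was RHD6, a transcription factor gene of root hair cells, with 3.83 and 3.72 FPKM in Input and 0 in both RIP and both Mock libraries (log2 difference -2.25 ± 0.0501, limma, adjusted p = 8.74e-05). Like APOLO, it was thus listed at 0 in all 4 pull-down libraries. TFL2, the gene of LHP1, a chromatin protein, was higher in RIP than in Mock with 19.1 and 7.04 FPKM against 0 and 0 (log2 difference 3.67 ± 0.493, adjusted p = 0.00571), as was PID. The threshold here was a log2 difference of at least 1 with an adjusted p under 0.01. It was passed by 2 of the 5 genes and by 34.3% of all features tested, a like share.

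IPS1 and AT4 are shown with the part of each transcript that makes it a decoy for miR399. The mature miRNAs annotated by RefSeq share the seed, bases 2 to 8, in capitals:
miR399a: tGCCAAAGgagatttgccctg
miR399b: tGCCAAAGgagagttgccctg
miR399d: tGCCAAAGgagatttgccccg
miR399e: tGCCAAAGgagatttgcctcg
miR399f: tGCCAAAGgagatttgcccgg
The sequence of miR399c-3p is that of miR399b. Both lncRNAs hold 1 site with 3 unpaired bases after base 10 of the miRNA, and 18 of the 21 bases of miR399b are exactly complementary to it. PHO2 holds 5 sites without a bulge, and 19 bases of miR399a are exactly complementary to the best. Exactly complementary bases are in capitals. Lower case marks the bulge and mismatches, and G:U pairs were counted as mismatches throughout:
IPS1, chr3:3051224-3051247: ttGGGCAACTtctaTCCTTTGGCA
AT4, chr5:895149-895172: ttGGGCAACTtcgaTCCTTTGGCA
PHO2, chr2:14282106-14282126: tAGGGCAAATCTtCTTTGGCA
The sites of IPS1 and AT4 differ within the bulge, while their flanks are the same. In the merged exons of 32674 genes, 21 genes (0.0643%) held a bulged site with at most 4 mismatches to any of these miRNAs, and 29 (0.0888%) held a site without a bulge. IPS1 and AT4 also align to each other over 131 bases with 78.6% identity.

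The levels of these related lncRNAs differed widely. IPS1 had 6 and 8 reads in Input, or 0.218 (0.0801 to 0.475) and 0.317 (0.137 to 0.624) CPM, and 0 reads in RIP and Mock. At this level 0.424 and 0.259 reads would have been seen in the RIP libraries, so that nothing can be said about IPS1 in the pull-down. AT4 had 327 and 323 reads in Input and 55 and 16 in RIP. Its RIP values of 36.7 and 17.5 FPKM were both above the Input values of 12.7 and 13.7, although the interval of RIP replicate 2 (9.36 to 26.6 CPM) included the Input values of 11.9 and 12.8. The log2 difference of 0.90 ± 0.413 had an interval of -0.25 to 2.05 and did not pass the test (limma, adjusted p = 0.233).

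AT4 was past the threshold in RIP against Mock, with 0 reads in both Mock libraries. The log2 difference was 4.72 ± 0.413 (limma, adjusted p = 0.00156). At its RIP share, 5.45 and 4.25 reads would have been expected in Mock. Against the Mock floor of 3 reads per library, AT4 was at least 1.47-fold higher in RIP by the mean of both libraries. This bound rests on RIP replicate 1, since RIP replicate 2, at 17.5 FPKM, was under the mean Mock floor of 18.5 FPKM. Without Input replicate 1 or Input replicate 2, which enter the shared estimate of the spread, the difference was the same and the adjusted p was 0.0163 in either fit by limma, above the limit of 0.01. The call of AT4 as lower in Mock than in Input (log2 difference -3.82 ± 0.413, adjusted p = 0.00207 by limma) stands on a level that Mock could not have shown, as only 2.44 and 1.90 reads would have been seen there at the Input share. This call was also lost without Input replicate 1 (-3.87, adjusted p = 0.0280) or Input replicate 2 (-3.78, adjusted p = 0.0295).

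Of 13 listed genes of the phosphate pathway 6 were tested, of which 0 were higher and 0 lower in RIP than in Input, where 1.48% and 5.78% of all features passed. Their median log2 difference was -1.23, against -0.52 over all features. PHO2, the mRNA that miR399 targets, had 80.5 and 79.9 FPKM in Input, 54.7 and 29.9 in RIP and 0 and 10.9 in Mock, with log2 differences of -0.97 ± 1.33 to Input (limma, adjusted p = 0.732) and 3.59 ± 1.33 to Mock (adjusted p = 0.110). Both RIP values of PHO2 were below both Input values, and those of AT4 were above them. In RIP against Mock, 2 of the 6 were past the threshold, a share like the 34.3% of all features. PHT1;1, a phosphate transporter gene, had 4.97 and 8.65 FPKM in RIP and 0 in Mock (log2 difference 2.92 ± 0.302, adjusted p = 0.00253), and PHT1;4, another member of that family, had 2.19 and 3.07 and again 0 (1.85 ± 0.157, adjusted p = 0.00144). Both calls stand on levels that Mock could hardly have shown. The limit of 3 reads in Mock replicates 1 and 2 was 7.53 and 9.67 FPKM for the former gene, and 7.58 and 9.74 for the latter. All these RIP values were under the limit of Mock replicate 2, and those of the latter gene also under that of Mock replicate 1. SPX3 was below the minimum for testing, and the miR399 precursor genes are not listed in the table.

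The paper reports that most of the lncRNAs it tested by RIP-qPCR were enriched over input. GUT15 and AT4G36648 were the most abundant of the lncRNAs that the study chose from its RIP list. Their transcripts are related, with 80.5% identity over 169 aligned bases on the same strand and 78.3% over 83 more. Part of the longer stretch is shown, with the base that differs in lower case:
GUT15, chr2:7996635-7996664, minus strand: TGTCATCCGACCTTTGCCATGtCAGGTGCG
AT4G36648, chr4:17282161-17282190, minus strand: TGTCATCCGACCTTTGCCATGaCAGGTGCG
The 2 windows share 29 of 30 bases. The RIP-qPCR primers of the study fall into this stretch. The forward primer of GUT15 (catggcaaaggtcggatgacagag) and both primers of AT4G36648 (ttgccatgacaggtgcgcttgc and aagaggggagaacccgggcaaa) lie in the 169 aligned bases, and the reverse primer of GUT15 (gacggatgtgtgtgtgttggattga) lies outside them. Each of these 4 primers matches its own gene exactly and 1 place only, except the forward primer of AT4G36648. That primer has a further exact match on chromosome 1, at 6711080 to 6711101, in the overlapping genes AT1G19396 and AT1G19397. GUT15 also contains AT2G10045, an annotated pseudogene of 81 bases on the same strand that the table does not list.

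GUT15 was steady between replicates. It had 83.4 and 86.1 FPKM in Input, and 309.7 and 307.7 in RIP, from 840 and 510 reads. The RIP libraries were 3.71-fold and 3.57-fold above the Input libraries of the same number, and the log2 difference was 1.85 ± 0.313, under the limit of 2. In Mock, GUT15 had 0 and 0 reads, where 28.4 and 22.1 would have been seen at the Input share, and 104 and 80.8 at the RIP share. Against the Mock floor, it was at least 30.2-fold higher in RIP and at least 8.31-fold lower in Mock than in Input. GUT15 was thus the lncRNA best measured as present in RIP and not detected in Mock, as far as values used for choosing it can show.

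AT4G36648 was higher in RIP than in Input in both libraries and was also detected in Mock. It had 54.8 and 53.9 FPKM in Input and 356 and 485 in RIP, with a ratio of the means of 7.74. Mock replicate 1 held 1 read (5.05 CPM, 0.128 to 28.2), and Mock replicate 2 held 21 (136, 84.3 to 208), which was above the Input level of 115 and 113 CPM. The Mock libraries thus lay on either side of Input. The log2 differences were 2.91 ± 1.55 for RIP to Input and 4.80 ± 1.55 for RIP to Mock. The SE of 1.55 includes the spread of the Mock libraries. With Input and RIP alone in the fit, the difference of RIP to Input was again 2.91 with an SE of 0.189, and without Mock replicate 1 or Mock replicate 2 its SE was 0.189 or 0.188. Without Mock replicate 1 the difference of RIP to Mock was 2.66, and without Mock replicate 2 it was 6.94.

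AT5G38005 and AT5G09475 rested on few reads. AT5G38005 had 49 and 38 reads in Input and 13 and 3 in RIP, or 8.13 (4.33 to 13.9) and 3.07 (0.633 to 8.97) CPM against 1.782 and 1.503 in Input. Both RIP values were above the Input values, and the log2 difference was 1.36 ± 0.465. Its log2 difference to Mock was 3.36 ± 0.465, 0.42 with quantile normalization and 0.98 with voom. Only 1.23 and 0.957 reads would have been seen in the Mock libraries at the RIP share, and the mean in RIP was under the Mock floor of 31.8 FPKM, so that Mock could not show a difference. Of 14 related regions, 11 had an identity over 90%, among them parts of AT4G04223, AT3G56210 and AT5G19630 on the same strand, so that the split of reads between these loci is uncertain. The reverse primer listed for AT5G38005 has 0 exact matches in the reference genome. Spliced transcripts were not searched, so a primer across the junction of its 2 merged exons would be missed. AT5G09475 had 8 reads in RIP replicate 1, 0 in RIP replicate 2, and 0 and 1 in Input. The ratio of the summed shares in RIP and Input was 164, with a counting interval of 22.0 to 7271, and it came from 1 RIP library. AT5G09475 has 0 related regions elsewhere in the genome, so that copies do not bear on its reads.

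**Figure D2:**
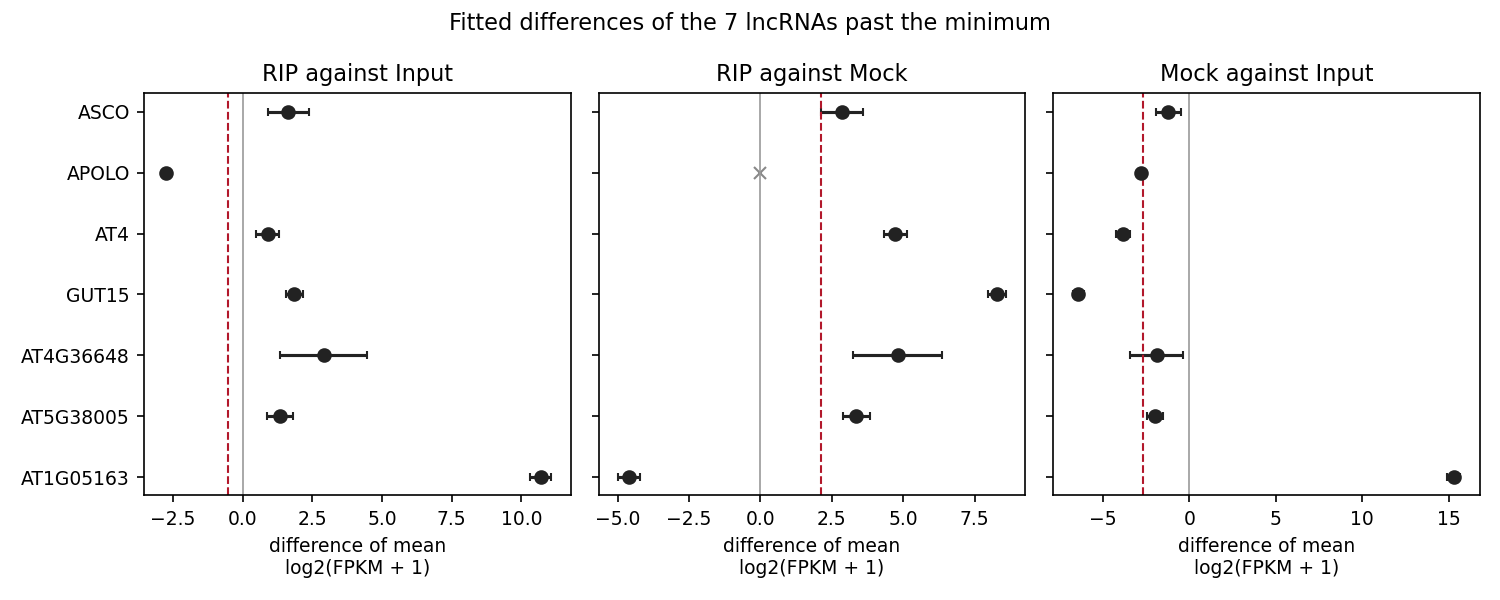
Differences of mean log2(FPKM + 1) with SE from limma for the 7 lncRNAs tested, in 3 panels of 1 comparison each (2 libraries a group). The dashed line is the median of the 19997 features tested (-0.52, 2.13 and -2.70), and the cross marks APOLO, which is at 0 in RIP and Mock and has no difference to show.

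The second comparison asks which RNAs the HA antibody recovered and IgG did not. Of ASCO, APOLO and AT4, 1, AT4, was past the threshold for higher in RIP than in Mock and 0 were past that for lower. Among all features tested, 34.3% passed the former and 0.18% the latter, and among the non-coding genes 28.3% and 0.952%. Without Input replicate 1 or Input replicate 2, AT4 was not past it (adjusted p = 0.0163 by limma in either fit). Scaling mattered here, since 99.5% of the features past either threshold were higher, against 11.3% with quantile normalization and 1.52% with voom. The median log2 difference was 3.36 over the 7 lncRNAs and 2.13 over all features. ASCO, with a log2 difference of 2.86 ± 0.727 to Mock, missed the threshold (limma, adjusted p = 0.0398). Without RIP replicate 1 its difference was 1.85 (adjusted p = 0.00668 by limma) and without RIP replicate 2 it was 3.86 (adjusted p = 0.00105). It was 0.12 (adjusted p = 0.850) with quantile normalization and 0.92 (adjusted p = 0.466) with voom. As the mean of ASCO in RIP was under the Mock floor of 22.0 FPKM, none of these values shows that ASCO differed between RIP and Mock. For the 7 lncRNAs with 0 reads in Mock, the depth of Mock decided what such a difference could mean. At their RIP share, the summed reads expected in both Mock libraries were 184 for GUT15, 9.70 for AT4, 2.60 for ASCO, 2.19 for AT5G38005 and 1.09 for AT5G09475.

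**Figure D3:**
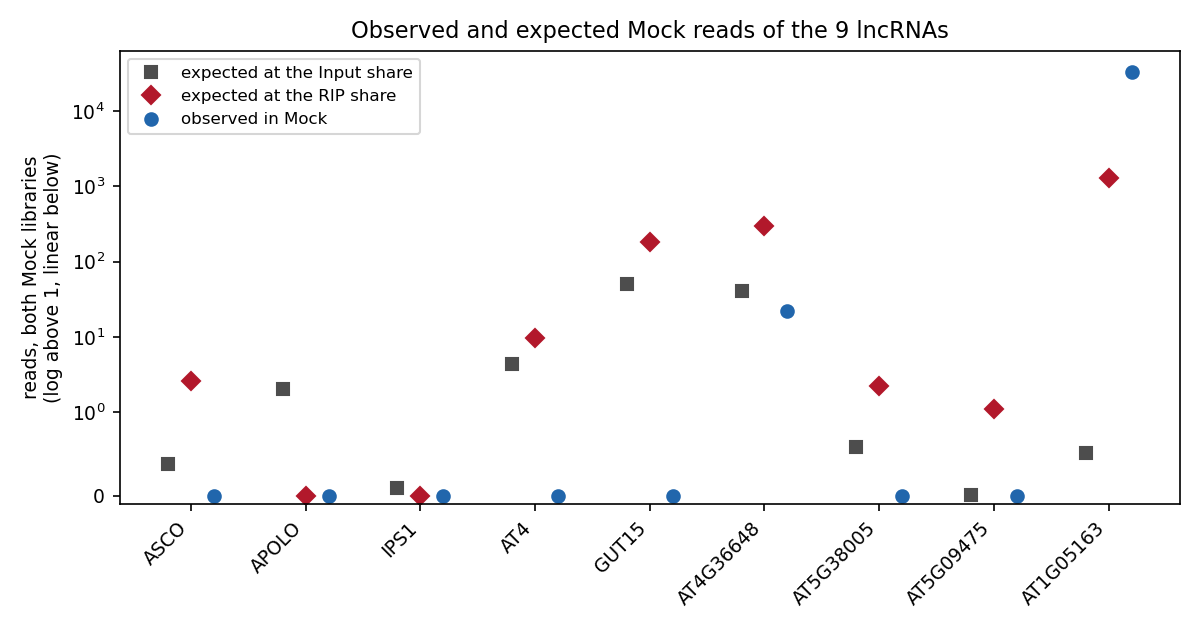
Reads counted in the 2 Mock libraries together (circles) and those expected had each lncRNA kept its share of Input (squares) or of RIP (diamonds), on an axis that is logarithmic above 1 and linear below. GUT15 has 0 reads where 184 were expected at the RIP share, AT4G36648 has 22 where 300.1 were, and AT1G05163 has 33288 where 1278 were.

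Mock against Input measures what the pull-down collected without the HA antibody. Of ASCO, APOLO and AT4, 0 were past the threshold for higher, and 2, APOLO and AT4, were past that for lower. Among all features tested, 0.715% and 41% passed, and among the non-coding genes 4.05% and 24.3%. The Input level of both was under the Mock floor. APOLO had a log2 difference of -2.76 ± 0.0658 (limma, adjusted p = 8.81e-05), which turned to 0.24 with quantile normalization. Of all features past either threshold 1.71% were higher, against 21.9% with quantile normalization.

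AT1G05163 behaved unlike the other 8. It had 46 and 30 reads in Input, or 2.31 and 1.64 FPKM. In RIP it had 6093 and 3260 reads, or 5255 and 4601 FPKM, and in Mock 23650 and 9638 reads, or 164815 and 86240 FPKM. These Mock reads were 11.9% and 6.25% of the libraries, which made AT1G05163 the second and the third of the annotated genes by reads, and they are the values it was chosen for. The log2 differences were 10.70 ± 0.375 for RIP to Input, 15.30 ± 0.375 for Mock to Input and -4.60 ± 0.375 for RIP to Mock. All these values are relative to the total of each library and do not give amounts of RNA. The paper reports that RNA from the IgG pull-down was below detection, so a larger share in Mock does not mean more RNA recovered. The groups did not overlap in any comparison. RefSeq describes AT1G05163 as an antisense transcript of AT1G15410, and the 2 genes share 248 bases on opposite strands. AT1G15410, an aspartate-glutamate racemase family gene, had 607 and 571 reads in Input, 15 and 9 in RIP and 0 in Mock, so that the gene on the other strand did not share the Mock signal. AT1G15405, an ncRNA of 292 bases on the same strand, lies within AT1G05163 and is not listed in the table.

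The sequence of AT1G05163 recurs in the genome, and the genes that hold related sequence were compared by strand. The search found 9 related regions. A window of them is printed to show the match, with the differing base in lower case:
AT1G05163, chr1:5297972-5298001, minus strand: AATGCGTGAGGCTGGtTTCACAGAGCAGCG
AT4G04595, chr4:1476464-1476493, plus strand: AATGCGTGAGGCTGGtTTCACAGAGCAGCG
AT4G04565, chr4:1472906-1472935, plus strand: AATGCGTGAGGCTGGtTTCACAGAGCAGCG
AT7SL-1, chr4:1318975-1319004, minus strand: AATGCGTGAGGCTGGcTTCACAGAGCAGCG
AT7SL-1 is annotated on the plus strand, so this window is on the strand opposite to the gene. RefSeq lists it as a gene of 7SL RNA, the RNA of the signal recognition particle, and the aligned part of it is 383 bases long with 77.8% identity. The closest match, the pseudogene AT5G36275 (92.9% identity), is not listed in the table.

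The table lists 9 genes that overlap these regions. In 5 of them, the related sequence is on the strand of the gene: AT4G04595, AT4G04565, AT2G31141, AT1G49700 and RR3, a type-A response regulator gene of cytokinin signalling. All 5 were above 0 in both Mock libraries, at 172 to 84174 FPKM, against 15.2 to 1909 in RIP and 0.232 to 12.0 in Input. Of all annotated genes, 4.62% were above 0 in both Mock libraries, and 0.499% were at least as high in both as the lowest of these values. In the other 4, BXL3, AT5G09700, AT7SL-1 and AT2G09250, the related sequence is on the opposite strand, and all 4 were at 0 in every RIP and Mock library. They were also low in Input, at 0 to 0.622 FPKM, and of all annotated genes 79.9% were at 0 in both Mock libraries and 41.4% in both RIP libraries, so that these zeros carry little weight. RR3 and AT2G09250 overlap the same region on opposite strands, and only RR3 had Mock reads, 39484 and 12581. Together with AT1G05163, the 5 same-strand genes held 34.3% and 16.2% of the Mock reads, 0.736% and 0.888% of the RIP reads, and 0.00358% and 0.00362% of the Input reads. These genes were found through AT1G05163, whose Mock values were known, and the values are a description. Whether the reads came from 1 locus or from several cannot be told apart from gene counts.

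**Figure D4:**
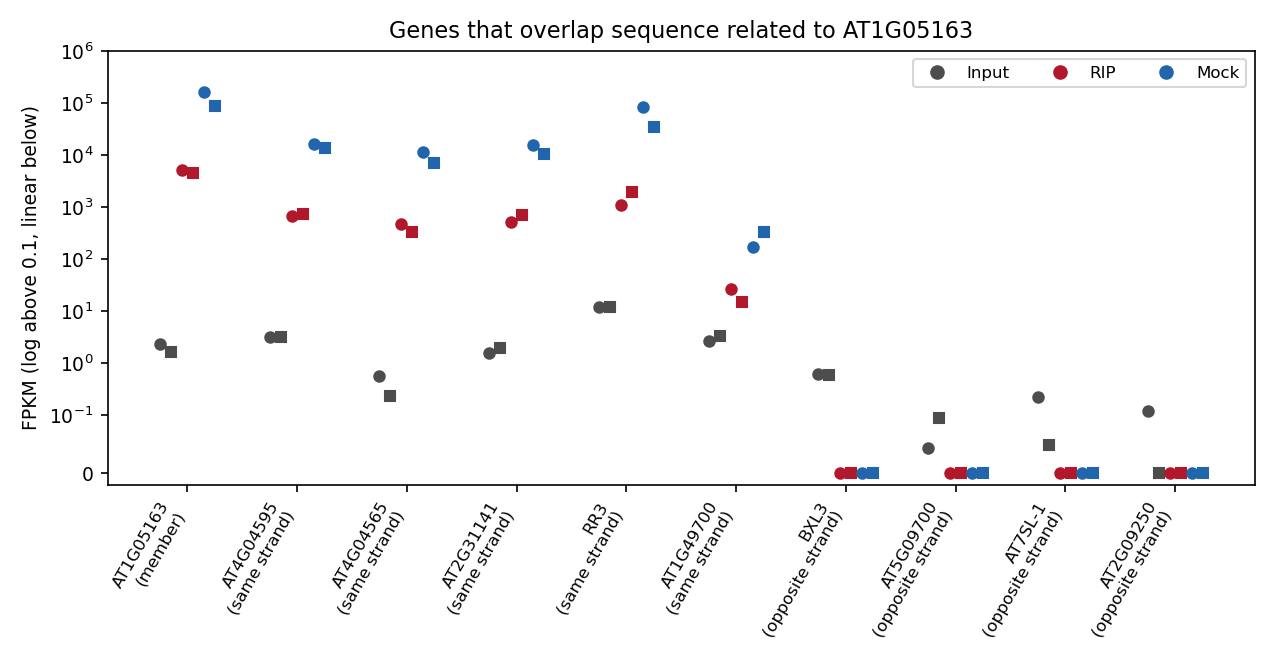
FPKM of AT1G05163 and of the 9 listed genes that overlap related sequence, on an axis that is logarithmic above 0.1 and linear below, with circles for replicate 1 and squares for replicate 2. The 5 genes with the sequence on their own strand lie at 172 FPKM or more in Mock, and the 4 with it on the opposite strand lie at 0 in RIP and Mock.

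The genes with the most similar pattern were then sought for the 4 lncRNAs with at least 10 reads in each RIP library, by the root mean square (RMS) difference of centred log2(FPKM + 1) over the 6 libraries among 19831 annotated genes. The nearest to AT4 were AT1G18950, a DDT domain gene (0.0782), AT5G66675 (0.0846) and AT1G27580, an F-box gene (0.103). For GUT15 they were AT5G16110 (0.340), AT3G13580, a ribosomal protein gene (0.458), and EMB1303 (0.498). AT4G36648 lay nearest to AT2G27830 (0.342), the receptor-like kinase gene AT4G08850 (0.362) and ERF6, an ethylene response factor gene (0.369), which had 0 FPKM in Mock replicate 1 and 19.8, 20.3 and 33.9 in Mock replicate 2. The nearest to AT1G05163 were U3D (0.539) and U3B (0.932), which encode the U3 small nucleolar RNA, and GRF8, a growth regulating factor gene (0.978). U3D had 1.01 and 1.21 FPKM in Input, 5004 and 2614 in RIP, and 51854 and 37594 in Mock. GUT15 and AT4G36648 had more distant neighbours than AT4, and AT1G05163 the most distant.

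Genes listed with ASCO were examined last. AT1G76940, an RNA-binding family protein gene, had 11.4 and 12.1 FPKM in Input, 145 and 105 in RIP and 181 and 60.3 in Mock. Its log2 difference was 3.29 ± 0.663 for RIP to Input (limma, adjusted p = 0.0371) and 0.24 ± 0.663 for RIP to Mock (adjusted p = 0.855), so that no difference between RIP and Mock was shown. The gene list drawn up here labels AT1G76940 as NSRa and AT1G21320 as NSRb, but neither the paper's text nor the reference gives these identifiers. Whether AT1G76940 is the tagged gene, and whether its values include transcripts of the transgene, was therefore not settled. AT1G21320 had 0.201 and 0.175 FPKM in Input and 0 elsewhere and was not tested. Of the 4 genes on this list 3 were tested, and 0 were past a threshold in RIP against Input or in RIP against Mock. Of all features, 1.48% were higher and 5.78% lower in the former comparison, and 34.3% and 0.18% in the latter. With 3 genes, a count of 0 says little.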

How the data were processed

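The deposited table gives FPKM for 2 Input, 2 RIP and 2 Mock libraries, scaled by the authors, although it is described as counts. The authors sequenced stranded libraries depleted of ribosomal RNA (single-end, 75 bp), mapped them with STAR and counted by strand with summarizeOverlaps in Union mode. The submitters' processing notes name TAIR10, and versions are not given in the sources used here. FPKM times merged exon length was a whole multiple of 1 step per library for 99.2 to 99.3% of annotated features above 0 (tolerance 0.02 reads), which gave reads and totals. limma 3.58.1 (R 4.3.3) was fitted to log2(FPKM + 1) of all 6 libraries (trended prior variance, p-values adjusted by Benjamini-Hochberg for 19997 features). It was first run on simulated data, in which the changed genes were far more abundant than ASCO, APOLO or AT4. That run therefore says little about these lncRNAs. Fold changes on this scale understate those of low genes. An exact permutation test of 2 against 2 libraries cannot go below 0.333. Sequences came from TAIR10.1 (RefSeq) and were searched with blastn 2.17.0. The lncRNAs, gene lists and tests were chosen with earlier results of these data known. Named genes are the 9 lncRNAs, listed genes past a threshold or always named, overlapping genes, and the 3 nearest in pattern. Genes related in sequence were named after their values were seen. In all, 14 alternatives were tried.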

Additional observations from a re-analysis of the deposited data

How the results depend on the processing

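Of 445 values under another setting, 334 kept their direction and side of the threshold, or moved by less than the replicate spread or 1.5 times for counts. Causes of the others were not tested. For lncRNAs without a test, only the log2 difference was compared. Several settings, such as the replicate block, cannot change a difference of group means. Part of this count was thus fixed in advance, and it is not a measure of robustness. Depth limits the Mock values most: below 15.2 and 19.5 CPM a gene could not be told from 0 there.

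Counts of lncRNAs here are over all 7 fitted, 4 of them picked on such values, and describe how the fit behaves. By the thresholds 1 was higher and 1 lower in RIP than in Input. With only the 2 groups compared 2 were higher. None, 0, were higher with no filter on low values, with array weights or with voom on recovered reads, and 0 were lower with array weights, voom or quantile normalization. The log2 difference of APOLO, -2.76, missed the threshold with quantile normalization (-1.21), array weights (-2.76) and voom (-3.83). In RIP against Mock, 3 were higher and 1 lower. These numbers were 0 and 0 with only the 2 groups compared, 1 and 2 with quantile normalization and with voom, and 1 and 0 with array weights, and 0 were lower with no filter. The difference of AT4, 4.72, missed the threshold with only the 2 groups compared (4.72), quantile normalization (1.89) and voom (2.85), and that of ASCO passed it with a pseudocount of 0.1 (5.92) and was 0.12 with quantile normalization and 0.92 with voom. In Mock against Input, 1 lncRNA in place of 3 was lower with quantile normalization and with voom. ASCO, at -1.21, turned to 1.51 with quantile normalization and 1.47 with voom. APOLO turned to 0.24 with quantile normalization and missed the threshold with voom (-0.99), as AT4 did with both (-0.55 and -2.11).

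Of all features, 296 were higher in RIP than in Input, 66 with array weights and 39 with voom. The 1155 lower features became 1972 with a pseudocount of 0.1, 725 with at least 5 FPKM, 298 with quantile normalization, 380 with array weights and 6 with voom. In RIP against Mock, 6853 higher and 36 lower features became 0 and 0 with only the 2 groups compared (limma, 8553 and 75 at an unadjusted p under 0.05), 228 and 1785 with quantile normalization, and 26 and 1681 with voom. The lower ones were 22 with no filter and 0 with array weights (14 at an unadjusted p under 0.05). In Mock against Input, 8205 lower features became 574 with quantile normalization and 2577 with voom. Under quantile normalization the median log2 difference over the tested features was -0.00173 in place of -0.52 in RIP against Input, -0.17 in place of 2.13 in RIP against Mock and 0.12 in place of -2.70 in Mock against Input.

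With the replicate number as a block, 152 features were higher in RIP than in Input and 12 lower in RIP than in Mock. Of the lncRNAs, 2 in place of 3 were higher in RIP than in Mock, and the numbers past the other thresholds were as before. Deviations of libraries with the same number had correlations of 0.00846 (RIP and Input), 0.0122 (RIP and Mock) and -0.00166 (Mock and Input). These values show no pairing by number but cannot exclude it. The pooled SD of log2(FPKM + 1) was only 0.0879 in Input, and 0.931 in RIP and 1.73 in Mock, where the libraries were shallow.

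With 1 library left out at a time, features higher in RIP than in Input ranged from 56 to 599 and lower ones from 890 to 2575, with 1 to 2 lncRNAs higher. The difference of ASCO ranged from 0.63 to 2.65. In RIP against Mock the ranges were 2577 to 9985 higher and 1 to 453 lower features, 1 to 4 higher and 0 to 1 lower lncRNAs, 1.85 to 3.86 for ASCO and 4.21 to 5.24 for AT4. In Mock against Input they were 62 to 425 higher and 3490 to 10318 lower features, and -3.87 to -3.78 for AT4.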
